A study of Homo sapiens with 11 samples.

Results

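The matrix metalloproteinases MMP1, MMP2, MMP3, MMP7, MMP9, MMP13 and MMP14 and their tissue inhibitors TIMP1, TIMP2 and TIMP3 were followed in tumours grown in mice and treated with evexomostat or vehicle. The 10 genes were taken by symbol from a table of 28152 gene symbols, a list set by gene family and chosen with earlier results of these data known. All 10 were in the table, and 9 passed the filter on low counts; MMP13 did not. By edgeR's quasi-likelihood test 0 of the 9 tested genes passed an adjusted p of 0.05 between the treatment groups, which 0.606% of all tested genes did, and 1 had an unadjusted p under 0.05. DESeq2 and limma also called 0 of the 9. MMP1 and MMP3 differed widely between tumours of both groups, and MMP7 and MMP14 mainly between vehicle tumours.

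Matrix metalloproteinases are zinc-dependent endopeptidases that cut collagens, laminins, fibronectin and other proteins of the extracellular matrix, and release growth factors held there. Most are secreted as inactive proenzymes and gain activity when their propeptide is removed, while MMP14 sits in the cell membrane. The TIMP proteins bind the active sites of these enzymes and block them, and TIMP2 also takes part in the activation of pro-MMP2 by MMP14 at the cell surface. In breast tumours both cancer cells and stromal cells are known sources of these proteins. Transcript levels, which are what was measured here, do not show how much proenzyme is activated.

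The xenografts were grown from BT-474, a human breast cancer cell line labelled HR+/Her2+, placed with Matrigel into the mammary fat pad of female athymic nude mice. All mice, controls included, carried a slow-release pellet of 0.72 mg beta-estradiol meant to last 90 days. Tumours were enrolled above 95 mm3, and mice then received evexomostat (SDX-7320), an inhibitor of methionine aminopeptidase 2, at 12 mpk, or mannitol water as the vehicle. Both were given under the skin every 4 days, and the samples are labelled day 33. There were 6 vehicle tumours (replicates 001, 003, 004, 005, 006 and 007) and 5 evexomostat tumours (replicates 002, 003, 004, 005 and 007). The age of the mice was not given. Athymic nude mice lack mature T cells but keep other host cells, and all tumours come from a single cell line.

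The libraries held 22808033 to 39249329 counts each. Vehicle tumour 001 stood apart, where the 100 most abundant genes took 23.9% of the counts, and 16.2% to 17.9% in each of the other 10 libraries. The labelled hormone receptors were near absent: ESR1, the estrogen receptor, had 1 to 17 counts per library and PGR, the progesterone receptor, 0 to 5. The epithelial cadherin CDH1 (mean 0.456 RPM, reads scaled to a common library total) and the luminal keratin KRT19 (mean 0.803) were also low, while the luminal keratins KRT8 and KRT18 averaged 332 and 149. ERBB2, which encodes Her2 and is amplified in BT-474, averaged 53.7 RPM, a modest level for a Her2+ line. The remaining luminal markers examined averaged 3.03 RPM (EPCAM), 1.05 (FOXA1) and 6.50 (GATA3). Most of these markers were thus low and fit the labelled cell type only in part, and the tumours are described here as the xenografts labelled BT-474. Among all 16653 tested genes, 101 (0.606%) passed an adjusted p of 0.05, 29 of them higher and 72 lower with evexomostat.

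The start-site regions of 4 of the 10 genes could be matched in a RefSeq table (MMP7, MMP14, TIMP1 and TIMP3; build GRCh38.p14). Shown here are the 250 bases before the start of MMP7 and MMP14, which varied widely between tumours, and of TIMP1, the most abundant transcript of the family. Each is written 5′ to 3′ on the gene's own strand, and capitals mark matches to 3 short motifs. The AP-1 site was searched as TGAGTCA and, for the other strand, as TGACTCA. The TATA box was searched as TATAAA and, for the other strand, as TTTATA. The GC box was searched as GGGCGG and, for the other strand, as CCGCCC. The motifs share no bases in these windows.
MMP7: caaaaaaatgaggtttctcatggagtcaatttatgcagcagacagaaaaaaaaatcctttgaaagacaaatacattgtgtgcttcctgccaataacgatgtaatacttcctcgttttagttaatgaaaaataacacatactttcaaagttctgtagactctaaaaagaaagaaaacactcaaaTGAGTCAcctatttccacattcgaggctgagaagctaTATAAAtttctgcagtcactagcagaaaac
MMP14: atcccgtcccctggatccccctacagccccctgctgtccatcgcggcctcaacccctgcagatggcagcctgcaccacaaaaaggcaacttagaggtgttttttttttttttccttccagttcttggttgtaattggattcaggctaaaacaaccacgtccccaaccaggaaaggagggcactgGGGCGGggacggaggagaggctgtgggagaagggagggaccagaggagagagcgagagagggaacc
TIMP1: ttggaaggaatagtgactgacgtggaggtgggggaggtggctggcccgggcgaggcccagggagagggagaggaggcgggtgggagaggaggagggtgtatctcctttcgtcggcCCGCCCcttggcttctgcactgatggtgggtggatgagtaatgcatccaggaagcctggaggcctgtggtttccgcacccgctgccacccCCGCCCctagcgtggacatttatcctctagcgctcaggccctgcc
These windows are chr11:102530748-102530997 on the minus strand for MMP7, chr14:22836335-22836584 on the plus strand for MMP14 and chrX:47582186-47582435 on the plus strand for TIMP1. The MMP7 window held an AP-1 match 67 to 61 bases before the start and a TATA match 30 to 25 bases before it. MMP14 had a single GC box, 66 to 61 bases before its start, and TIMP1 had GC boxes at 135 to 130 and 45 to 40 bases. In the TIMP3 window, chr22:32801455-32801704 on the plus strand, there were 5 GC boxes. GC content was 33.6% for MMP7, 56.8% for MMP14, 64.8% for TIMP1 and 72.4% for TIMP3. Over 35116 windows of the same length, 4.20% held the AP-1 motif, 10.7% the TATA motif and 42.6% the GC box, so a match describes the sequence and no more.

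Levels were compared between genes as RPM divided by exon length in kilobases. On this scale TIMP1, a broad inhibitor of secreted MMPs, stood first in both groups, at 178 ± 48.7 RPM per kilobase with vehicle (SD, n = 6) and 198 ± 57.1 with evexomostat (SD, n = 5). TIMP2 followed at 26.8 ± 7.23 and 29.1 ± 3.06, and its range lay wholly below that of TIMP1 in each group. In vehicle tumours the next levels were 15.02 for MMP7, 7.63 for MMP14, 5.60 for TIMP3, 3.29 for MMP1 and 2.60 for MMP2. Neighbours in that order, from TIMP2 to MMP2, overlapped in their ranges and cannot be ranked from these tumours. MMP3 (0.532) and MMP9 (0.325) lay below MMP2, with MMP3's range under that of MMP2 and overlapping that of MMP9. In evexomostat tumours MMP14 (9.32) came before MMP7 (6.74), MMP1 (5.00), MMP2 (4.32) and TIMP3 (4.07), again with overlapping neighbours. MMP3 (0.830) and MMP9 (0.586) again came last of the 9 tested genes. The 3 TIMP genes together made up 81.7% to 97.3% of the summed level of the 10 genes in vehicle tumours and 84.5% to 94.7% in evexomostat tumours.

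**Figure D1:**
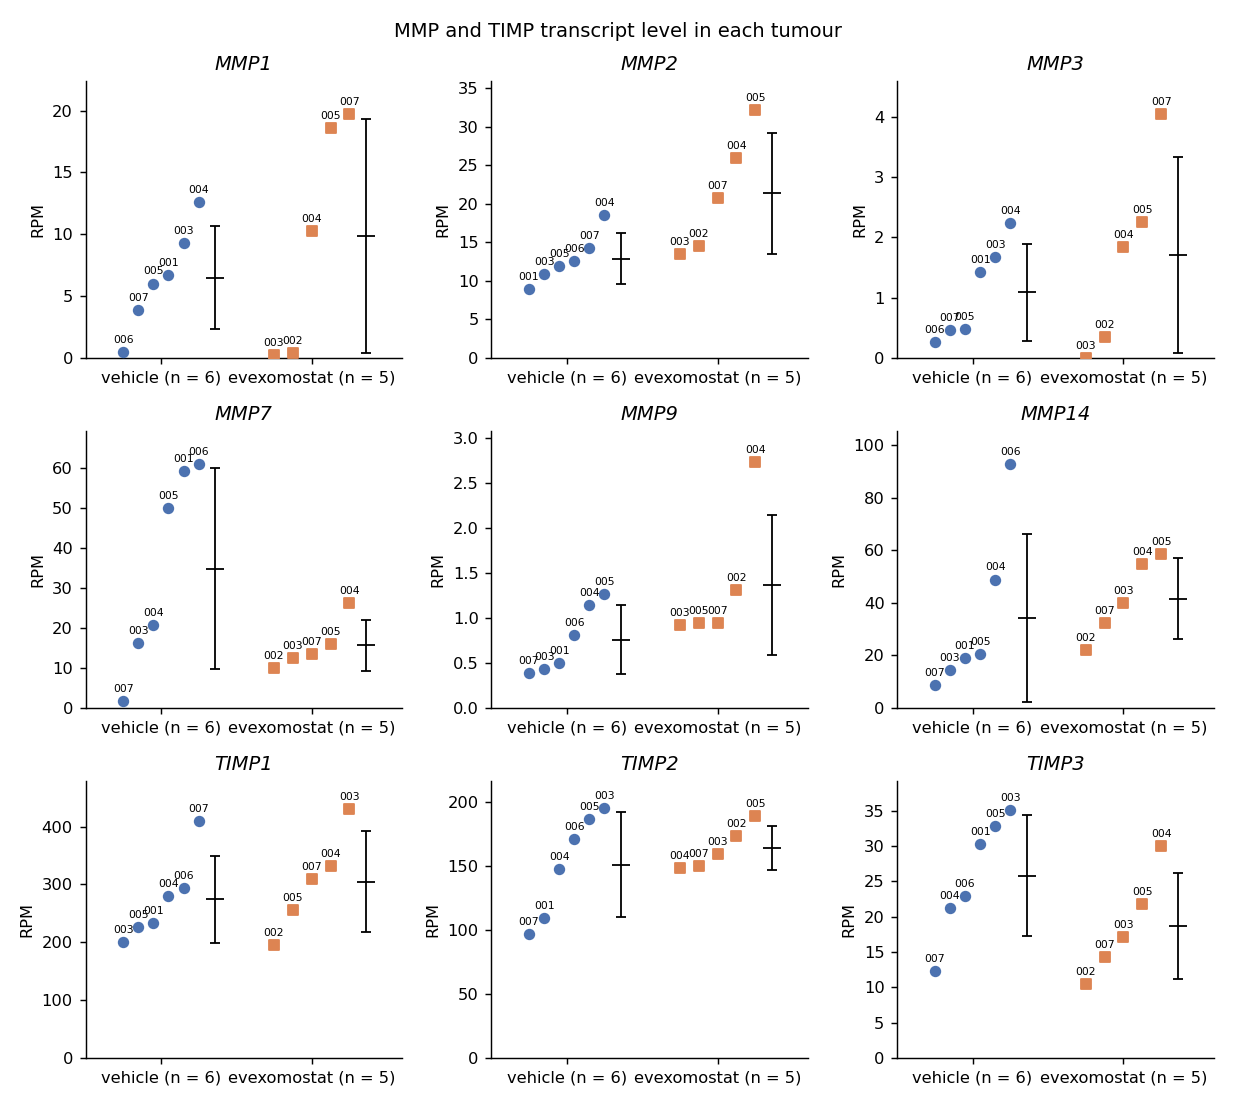
Level of each tested gene in each tumour, in RPM (reads scaled to a common library total) on linear axes that start at 0; circles are vehicle tumours, squares evexomostat tumours, numbers are replicates, and the bar gives the mean ± SD. The groups overlap in all 9 panels, and MMP1 and MMP3 in evexomostat tumours and MMP7 in vehicle tumours run from values near 0 to the highest of their panels.

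Among the proteases, MMP2 (gelatinase A, a secreted enzyme that cuts type IV collagen and denatured collagen) came closest to a difference. Its level in vehicle tumours ran from 8.88 RPM in tumour 001 to 18.5 in tumour 004, with a median of 12.2. With evexomostat it was 14.5, 13.4, 25.9, 32.1 and 20.7 RPM in tumours 002, 003, 004, 005 and 007. All 5 evexomostat tumours lay above the vehicle median and 3 above the highest vehicle tumour, while tumours 002 and 003 lay within the vehicle range. The means were 12.8 ± 3.31 (SD, n = 6) and 21.3 ± 7.85 (SD, n = 5). The log2 fold change was 0.65 (standard error 0.24, 95% interval 0.13 to 1.16), with an adjusted p of 0.251 by edgeR's quasi-likelihood test with Benjamini-Hochberg adjustment. MMP2 was the only member with an unadjusted p under 0.05 (0.0174 by edgeR), a level that 13.4% of all tested genes reached. In bulk tumour RNA, fewer cells of a type and less RNA per cell cannot be told apart, for this gene and the others.

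MMP2 was highest in evexomostat tumour 005, the tumour that also had the highest sum of skeletal muscle markers. The 12 muscle markers summed to 505 RPM there, against 33.0 to 103 in the other evexomostat tumours and 36.9 to 62.5 in vehicle tumours. The list was uneven: ACTA1, MYH1, MYH4 and MYH2 reached at most 147, 104, 80.3 and 78.0 RPM. MYLPF, TNNT3 and CKM had at most 10 counts in every library, and MB at most 20. Of the 9 tested muscle markers, 8 had a positive log2 fold change with evexomostat and 7 an unadjusted p under 0.05 by edgeR, with a median of 2.55, and 0 passed the adjusted threshold. Without that tumour the log2 fold change of MMP2 was 0.46 (adjusted p 0.50 by edgeR). The 10 fibroblast markers summed to 425 to 2108 RPM in vehicle and 545 to 1180 in evexomostat tumours. The sum was highest in vehicle tumour 004, which also had the highest MMP2 of its group. Among evexomostat tumours it was highest in 005, at 1180 RPM, against at most 927 in the others. Both marker sums were thus highest of their group in the tumour with the most MMP2. COL3A1 made up much of the fibroblast sum, at 183 to 1757 RPM over all tumours, while DCN, LUM and PDGFRA stayed at 5.51 RPM or less. The part of either tissue in the MMP2 values was not tested.

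MMP9, gelatinase B, was low throughout, with 11 to 73 counts per library. Vehicle tumours ranged from 0.386 RPM (tumour 007) to 1.27 (tumour 005), with a median of 0.655. Evexomostat tumours had 1.31, 0.921, 2.73, 0.941 and 0.944 RPM in the order 002, 003, 004, 005, 007. All 5 exceeded the vehicle median and 2 exceeded the highest vehicle value, yet tumour 004 alone reached 2.73. Its log2 fold change was 0.76 (standard error 0.40, 95% interval -0.10 to 1.62, adjusted p 0.441 by edgeR), and 0.35 (adjusted p 0.810) without tumour 004. At this depth a difference in MMP9 within that interval was not resolved.

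MMP7, or matrilysin, is a small secreted protease without a hemopexin domain that epithelial cells are known to make. It ranged from 1.69 RPM in vehicle tumour 007 to 61.2 in vehicle tumour 006, a 36.3-fold span within the vehicle group, around a median of 35.4. The 5 evexomostat tumours held 9.91, 12.5, 26.3, 16.1 and 13.5 RPM (002, 003, 004, 005, 007), a 2.65-fold span. Vehicle tumours split into 3 at 50.1 RPM or more (001, 005 and 006), with tumours 003 and 004 at 16.3 and 20.7 and tumour 007 far below. All evexomostat tumours were below the vehicle median but inside the vehicle range. For MMP7 the log2 fold change was -1.27 (standard error 0.62, 95% interval -2.61 to 0.08, adjusted p 0.406 by edgeR), an interval that spans 0 and also holds changes of more than 4-fold. Without vehicle tumour 007 it was -1.52 (adjusted p 0.135).

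MMP14 (MT1-MMP), the membrane-bound collagenase that activates pro-MMP2, likewise varied most among vehicle tumours. It ran from 8.74 RPM in vehicle tumour 007 through a median of 19.7 to 92.9 in tumour 006, a 10.6-fold span. Evexomostat tumours had 22.1, 40.0, 54.8, 58.7 and 32.4 RPM. All 5 were above the vehicle median, and none was above vehicle tumour 006. Vehicle tumour 004, at 48.8 RPM, also lay among the treated tumours. For MMP14 the log2 fold change was 0.23 (standard error 0.49, 95% interval -0.84 to 1.29, adjusted p 0.900 by edgeR), and 0.79 (adjusted p 0.402) without vehicle tumour 006. Whether the spread of MMP7 and MMP14 differed between the groups was not tested.

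MMP1, interstitial collagenase, which opens the triple helix of fibrillar collagen, had the largest SD of log2 CPM of all members when both groups were pooled, while among vehicle tumours alone MMP7 had a larger one. In vehicle tumours it was lowest in 006 (0.486 RPM, 15 counts), had a median of 6.36 and was highest in 004 (12.6 RPM, 439 counts). In evexomostat tumours it was 0.405, 0.219, 10.3, 18.6 and 19.8 RPM (13, 5, 274, 533 and 628 counts) in 002, 003, 004, 005 and 007. Each group therefore contained tumours with almost none: 1 of 6 with vehicle and 2 of 5 with evexomostat lay under 0.5 RPM, while the other 8 tumours lay at 3.86 or more. Within the evexomostat group the highest value was 90.1 times the lowest. The log2 fold change was 0.50 (standard error 0.90, 95% interval -1.44 to 2.45, adjusted p 0.875 by edgeR), but the difference of mean log2 CPM was -0.52, so its sign depends on whether levels are averaged before or after taking logs.

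MMP3, or stromelysin 1, which cuts proteoglycans, fibronectin and laminin and activates proenzymes including pro-MMP1, followed MMP1 at a lower level. It ranged from 0.259 RPM (vehicle tumour 006) to 2.24 (vehicle tumour 004), with a median of 0.947. The evexomostat tumours had 0.343, 0, 1.84, 2.26 and 4.06 RPM, the 0 in tumour 003, where 3 counts would equal 0.132 RPM. The same tumours were low for both genes: 002 and 003 with evexomostat and 006 with vehicle had the lowest MMP3 values of their groups. The log2 fold change was 0.56 (standard error 0.80, 95% interval -1.17 to 2.28, adjusted p 0.835 by edgeR), and it turned to -0.08 without evexomostat tumour 007. MMP13, collagenase 3, had 1 count in vehicle tumour 006, 1 in evexomostat tumour 007 and 0 in the other 9 libraries, where 3 counts correspond to at most 0.132 RPM.

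TIMP1 was abundant in every tumour, from 196 to 431 RPM. Vehicle tumours ran from 201 RPM in 003 through a median of 257 to 409.8 in 007, and evexomostat tumours had 196, 431, 333, 256 and 309. The treated group held both the lowest tumour (002) and the highest (003). The means of 274 ± 75.0 and 305 ± 88.0 (SD, n = 6 and n = 5) gave a log2 fold change of 0.05 (standard error 0.21, adjusted p 0.955 by edgeR). Its 95% interval, -0.41 to 0.51, does not contain a 1.5-fold change in either direction.

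TIMP2, the inhibitor that also bridges MMP14 and pro-MMP2, had the smallest pooled SD of log2 CPM of the family, although among vehicle tumours alone MMP2 and TIMP1 varied less. In vehicle tumours it was lowest in 007 (96.6 RPM) and 001 (109), had a median of 159 and was highest in 003 (195). In evexomostat tumours it was 173, 159, 148, 189 and 150.0 RPM, all within the vehicle range. The means were 151 ± 40.8 and 163.9 ± 17.2 (SD, n = 6 and n = 5). Its log2 fold change was 0.03 (standard error 0.17, 95% interval -0.33 to 0.40, adjusted p 0.963 by edgeR).

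TIMP3 differs from the other members of its family in binding to the matrix, and it also inhibits ADAM proteases. Its vehicle values went from 12.4 RPM in tumour 007 through a median of 26.6 to 35.1 in tumour 003. The evexomostat values were 10.5, 17.1, 29.97, 21.7 and 14.3 RPM, with tumour 002 under the lowest vehicle tumour and tumour 004 well inside the upper part of the vehicle range. It had a log2 fold change of -0.57 (standard error 0.30, 95% interval -1.21 to 0.07, adjusted p 0.437 by edgeR).

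**Figure D2:**
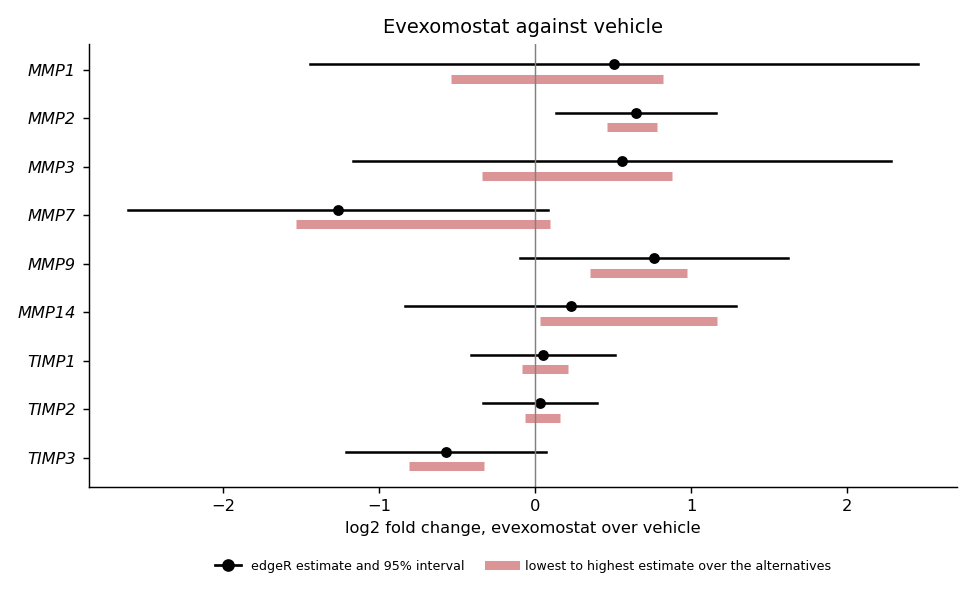
Log2 fold change of each tested gene, evexomostat over vehicle: points and black lines are edgeR's estimate with its 95% interval, and the red bands run from the lowest to the highest estimate over the other settings tried. Only the interval of MMP2, 0.13 to 1.16, stays above 0, and the bands of MMP1, MMP3, MMP7, TIMP1 and TIMP2 cross 0.

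Counted together, 5 of the 6 tested MMP genes had a positive log2 fold change and 1, MMP7, a negative one, with a median of 0.53. By the difference of mean log2 CPM, 3 were positive and 3 (MMP1, MMP3 and MMP7) negative, with a median of 0.22. Of the TIMP genes 2 were positive and 1 was negative in edgeR, with a median of 0.03. Over all tested genes the median was -0.04 and 44.6% were positive. The 2 groups of tumours overlapped in RPM for all 9 tested members. Over all tested genes 3.37% did not overlap. The edgeR count of members past the adjusted threshold stayed at 0 in each of 23 other settings. These called from few to many genes, for example 0.534% in limma-voom, 0.645% with the replicate number as a block and 3.9% in DESeq2. The lowest adjusted p of a member among them was 0.0701, for MMP2 in limma-voom with quality weights, where 6.36% of genes passed. In the authors' deposited table no member passed an adjusted p of 0.05 either, against 0.952% of its 28152 symbols, and the lowest was 0.221 for MMP2. That table gives MMP2 a log2 fold change of 0.73, MMP7 -1.16 and MMP9 0.84.

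Tumours of the same group differed more for some members than for others. The SD of log2 CPM within groups, pooled over both, was 2.35 for MMP1, 1.83 for MMP3, 1.504 for MMP7 and 0.96 for MMP14, where the median tested gene had 0.37. Among genes within 0.5 of the same mean log2 CPM, these SDs stood at percentile 99.9 of 1241 genes for MMP1, 99.3 of 1363 for MMP3, 99.9 of 2056 for MMP7 and 99.2 of 2580 for MMP14. The remaining proteases were nearer the middle, MMP9 at 0.65 (percentile 66.3 of 1337) and MMP2 at 0.43 (71.2 of 1907). TIMP3 had 0.57 (90.1 of 2236), TIMP1 0.38 (73.0 of 575) and TIMP2 0.29 (52.6 of 1292). For MMP7 and MMP14 the spread came from the vehicle tumours, with SDs of 1.96 and 1.19 there and 0.52 and 0.55 with evexomostat, where TIMP3 had 0.56. For MMP1 and MMP3 the SDs were 1.65 and 1.18 with vehicle and 3.00 and 2.40 with evexomostat. These are descriptions of 11 tumours and carry no test.

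**Figure D3:**
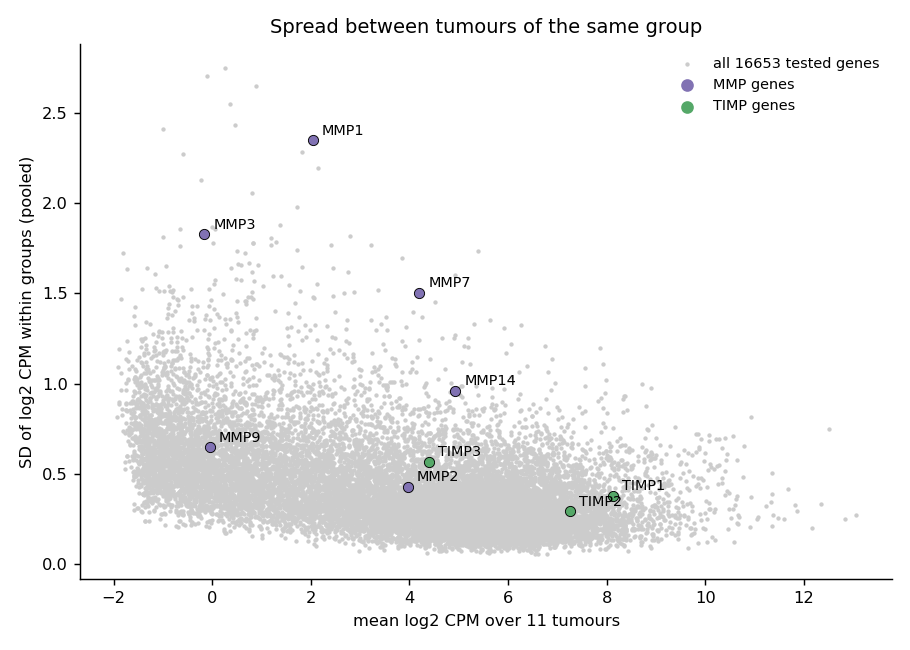
Spread between tumours of the same group (SD of log2 CPM, pooled over both groups) against mean log2 CPM for all 16653 tested genes in grey, with MMP genes in purple and TIMP genes in green. MMP1, MMP3, MMP7 and MMP14 sit at the upper edge for their level, with SDs from 0.96 to 2.35, and TIMP1 and TIMP2 sit inside the main cloud.

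MMP1, MMP3 and MMP7 belong to a row of neighbouring MMP genes on chromosome 11. In RefSeq order the row runs MMP7, MMP20, MMP27, MMP8, MMP10, MMP1, MMP3, MMP12 and MMP13. Of these 9 genes only MMP7, MMP1 and MMP3 passed the count filter. MMP20 had 4 to 18 counts per library, MMP8 and MMP10 0 to 8 each, MMP27 0 to 3, and MMP12 and MMP13 0 to 1. The other members lie on separate chromosomes, MMP14 on 14, MMP2 on 16, TIMP2 on 17, MMP9 on 20, TIMP3 on 22 and TIMP1 on X.

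The neighbours MMP1 and MMP3 moved together across tumours. Over all 11 tumours the correlation of their log2 CPM was r = 0.92 (permutation p 1e-05, the smallest that 100000 permutations can give, adjusted p 0.00036 over 36 pairs of members) and rho = 0.98 (permutation p 3e-05, adjusted p 0.00108). Leaving out the 2 tumours with the MMP1 level farthest from the median gave r = 0.88. Since 3 tumours had almost no MMP1, the relation was also taken in the other 8, where r was 0.91 (exact permutation p 0.000397, two-sided). It was 0.84 among the 6 vehicle tumours alone. MMP7, at the far end of the same row, was high in vehicle tumour 006, where MMP1 and MMP3 were both lowest of their group.

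A second pair, TIMP1 and TIMP2, ran in opposite directions on the TMM-scaled values but not clearly on the deposited ones. With TMM scaling r was -0.80 (permutation p 0.00275, adjusted p 0.0495) and rho -0.77 (permutation p 0.00747, adjusted p 0.0896). On log2 of the deposited RPM plus 0.1, r was -0.48 (permutation p 0.131, adjusted p 0.638) and rho -0.56 (permutation p 0.0755, adjusted p 0.553). The tumour that moved most between the scales was vehicle 001, whose TMM factor of 0.860 was the lowest, and without it r was -0.86 and -0.71 on the 2 scales. MMP7 and TIMP3 gave r = 0.71 (permutation p 0.0111, adjusted p 0.133) and rho = 0.82 (permutation p 0.00341, adjusted p 0.0614), with r = 0.63 without the 2 tumours whose MMP7 was farthest from the median. By Pearson's r, 2 of 36 pairs passed on the TMM scale, and of these only MMP1 with MMP3 also passed on the deposited scale.

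**Figure D4:**
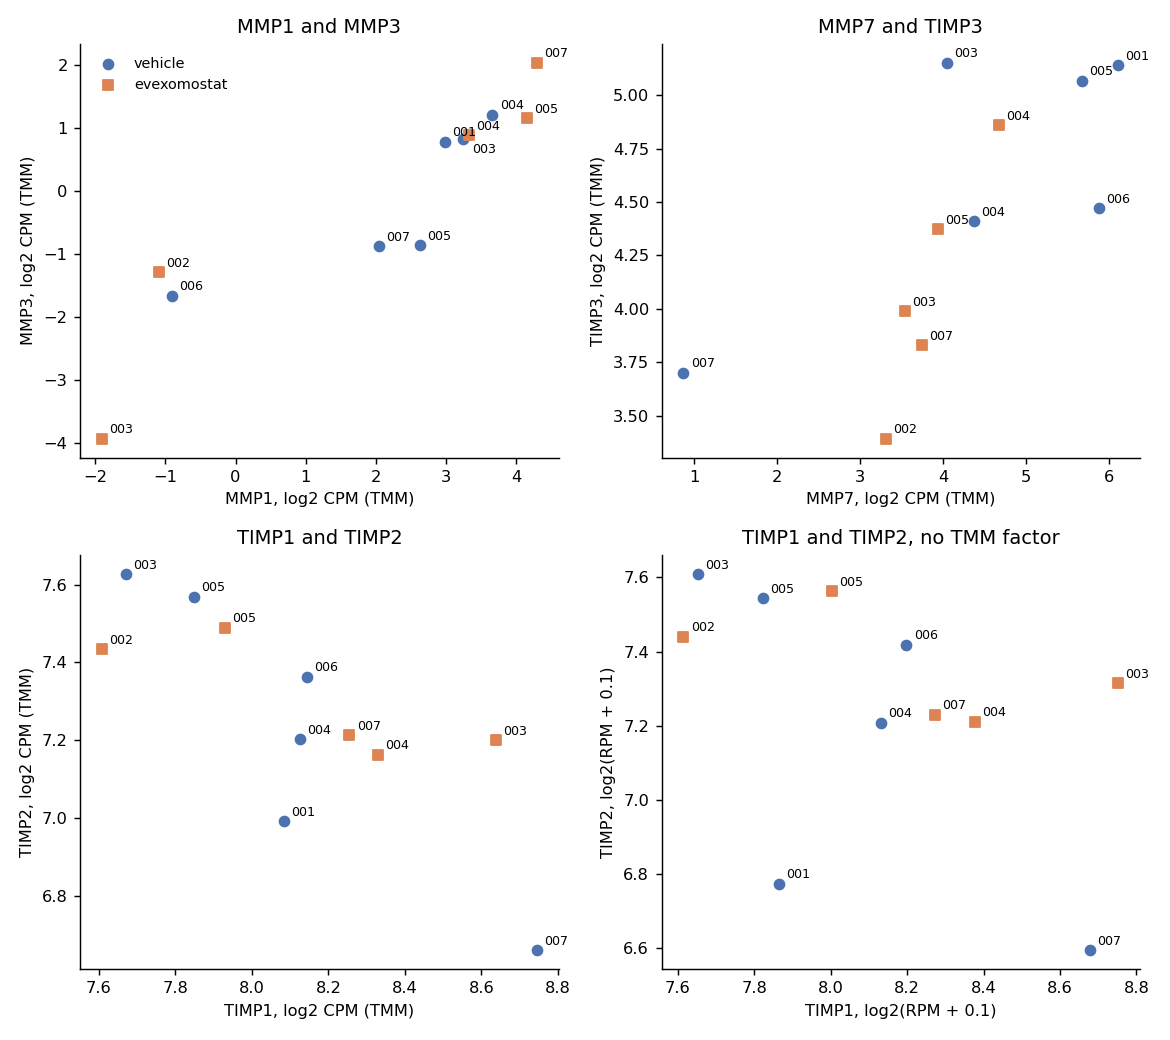
Tumour-by-tumour levels of 3 pairs of members, circles for vehicle and squares for evexomostat, numbered by replicate; axes are log2 CPM with TMM scaling, except in the last panel, which repeats TIMP1 and TIMP2 on log2(RPM + 0.1). MMP1 and MMP3 move together in both groups (r = 0.92), and the slope of TIMP1 with TIMP2 is looser without TMM scaling (r = -0.48 against -0.80). In the last panel vehicle tumour 001 has the lowest TIMP2 (6.77) apart from vehicle tumour 007 (6.60).

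Genes whose pattern was most like a member's were sought among 13068 tested genes with a mean log2 CPM of at least 1, over the same 11 tumours. For MMP1 the closest were COL6A3, a collagen VI chain (r = 0.89), NEK7 (0.88) and C1orf50 (0.88). For MMP7 they were CD9, a tetraspanin (0.92), ADPRHL1 (0.91) and ZNF542P (0.90). For MMP14 they were TP63, the transcription factor of basal epithelial cells (0.95), the protocadherin PCDHB5 (0.90) and the sulfatase SULF1 (0.90). TIMP1 was nearest to APOL3 (0.90), RABEP2 (0.90) and NRIR (0.89), and TIMP2 to SORT1 (0.93), OGA (0.92) and BTD (0.91). TIMP3 was nearest to NUP62CL (0.95), TNFSF9 (0.85) and ZBTB41 (0.84), and MMP2 to HR (0.88), POTEI (0.87) and POTEKP (0.86). These are the top values of a search over many genes, in libraries that share their scaling, and are given without a test.

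The level of an inhibitor beside that of a protease it is known to bind was taken per kilobase in each tumour. TIMP2 transcript exceeded that of MMP14 in every tumour, by 1.46-fold in vehicle tumour 006 to 10.7-fold in vehicle tumour 003, with a median of 3.66. TIMP2 was 5.01 to 15.8 times MMP2. TIMP1 was 5.92 to 367 times MMP7, 17.7 to 2515 times MMP1 and 184 to 1609 times MMP9. On the log2 scale, MMP2 relative to TIMP2 averaged -3.36 ± 0.56 with vehicle (SD, n = 6) and -2.83 ± 0.53 with evexomostat (SD, n = 5), and MMP14 relative to TIMP2 -2.23 ± 1.13 and -1.72 ± 0.59. The groups overlapped for all 5 ratios.

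Beyond the members, 124 genes of the wider pathway were described, of which 108 were tested, and 0 passed the adjusted threshold in edgeR, against 7 in DESeq2 and 12 in limma-voom with quality weights, which called 3.9% and 6.36% of all tested genes. Unadjusted p was under 0.05 for 7 higher and 22 lower genes. Over all tested genes 4.82% reached this level as higher and 8.55% as lower. The median log2 fold change of the 108 genes was -0.12.

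Among the other MMP genes 8 of 16 were tested, 6 with positive and 2 with negative fold changes. MMP17, a membrane-anchored family member, averaged 2.72 ± 0.708 RPM with vehicle (SD, n = 6) and 4.29 ± 0.974 with evexomostat (SD, n = 5; log2 fold change 0.56, adjusted p 0.293 by edgeR). Its groups did not overlap, though narrowly, with 3.55 RPM in the highest vehicle tumour and 3.56 in the lowest evexomostat tumour. Of all tested genes 2.58% were wholly higher with evexomostat in this way. MMP28, or epilysin, averaged 3.82 and 2.59 RPM (-0.68, adjusted p 0.661). Of 7 tested further inhibitors, 3 had positive and 4 negative fold changes. The fourth TIMP, TIMP4, averaged 17.0 ± 9.18 and 10.9 ± 4.26 RPM (SD, n = 6 and n = 5; log2 fold change -0.75, adjusted p 0.375 by edgeR). Without vehicle tumour 007 its log2 fold change was -0.41 (adjusted p 0.621). The broad protease trap A2M averaged 5.84 and 7.52 RPM (0.30, adjusted p 0.843), with 0.12 to 0.76 when single tumours were left out.

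Genes of MMP activation, a list that also holds inhibitors of plasminogen activators, gave 9 positive and 7 negative fold changes among 16 tested. The tetraspanin TSPAN12 averaged 8.32 and 5.78 RPM (log2 fold change -0.61, adjusted p 0.204 by edgeR). The related ADAM and ADAMTS proteases had 7 positive and 12 negative among 19, with ADAMTS6 at 11.3 and 22.7 RPM (0.92, adjusted p 0.195) and the aggrecanase ADAMTS4 at 3.36 and 1.27 (-1.48, adjusted p 0.133). TSPAN12 and ADAMTS4 each stayed short of the adjusted threshold in 22 of the 23 alternatives and passed it in the remaining alternative.

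Matrix substrates had 9 positive and 14 negative fold changes among 23. Fibronectin, FN1, ranged from 228 to 1418 RPM with vehicle, with a median of 621, and was 107 to 206 with evexomostat. Its groups did not overlap, as for 0.787% of tested genes in this direction, and its means were 754 ± 519.5 and 176 ± 40.3 (SD, n = 6 and n = 5). The log2 fold change of -2.18 had an adjusted p of 0.0503 by edgeR, just short of the threshold, and passed it in DESeq2 (adjusted p 5.92e-05), in limma-voom with quality weights (0.00849) and without the count filter (0.0439). It also passed without vehicle tumour 001 (0.0132), without vehicle tumour 005 (0.0332) and in a fit of the 8 libraries sharing replicate numbers. In 17 of the 23 alternatives FN1 stayed short of the threshold. Its adjusted p by edgeR rose to as much as 0.148 when single tumours were left out. Of all genes, 3.9% passed in DESeq2, 6.36% with quality weights, 0.433% without the count filter, 5.22% without vehicle tumour 001 and 0.466% without vehicle tumour 005. The small proteoglycan biglycan, BGN, averaged 25.2 and 83.7 RPM (1.68, adjusted p 0.279 by edgeR). BGN stayed short of the threshold in 22 of the 23 alternatives and passed it in the remaining alternative.

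Of 24 tested genes known to induce MMP transcription, 8 had positive and 16 negative fold changes, and 9 of the latter had an unadjusted p under 0.05, as did 8.55% of all tested genes in that direction. The cytokine IL6 averaged 90.6 ± 50.6 and 37.1 ± 8.14 RPM (SD, n = 6 and n = 5; log2 fold change -1.40, adjusted p 0.0811 by edgeR). It passed in DESeq2 (adjusted p 0.00287), in limma-voom with quality weights (0.0264) and, in edgeR, without vehicle tumour 001 (0.0455). In the other 20 of the 23 alternatives IL6 stayed short of the threshold. Its adjusted p by edgeR rose to as much as 0.213 when single tumours were left out. TGFB1 averaged 14.4 and 28.7 RPM (0.92, adjusted p 0.192). Genes with a hemopexin domain, and partners of that domain or of MMP9, gave 2 positive and 9 negative fold changes. Among those with a mean log2 CPM of at least 1, LRP1 was lowest at -0.71 (adjusted p 0.480 by edgeR). This receptor, which clears proteases, averaged 261 and 169 RPM. THBS2 was highest at 0.12 (adjusted p 0.921 by edgeR).

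**Figure D5:**
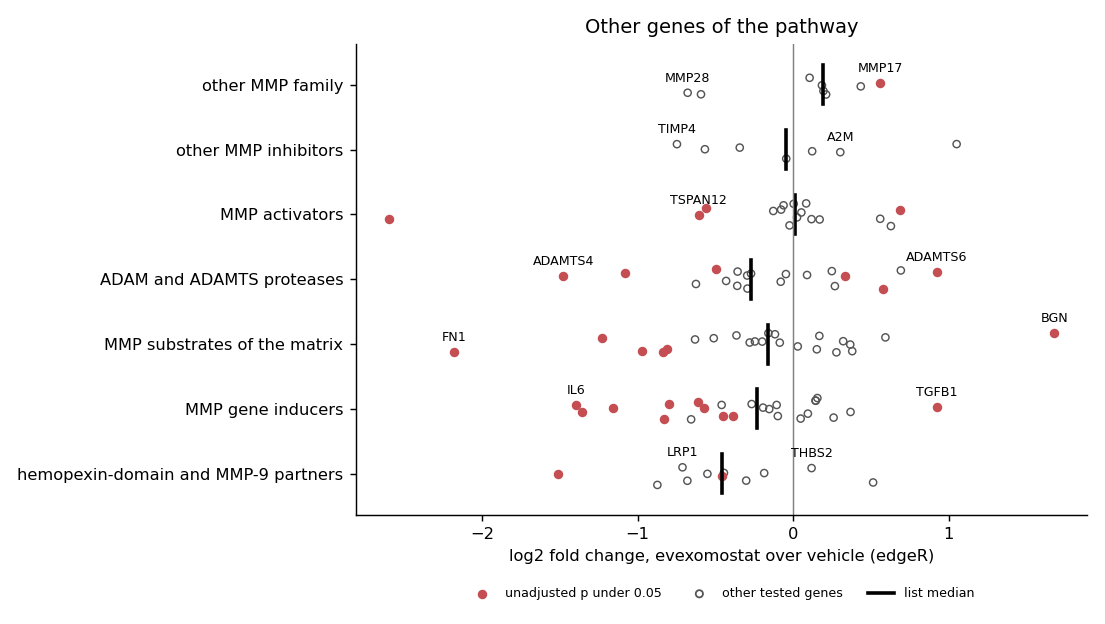
Log2 fold change (evexomostat over vehicle, edgeR) of the 108 tested pathway genes by group; filled points have an unadjusted p under 0.05, open points do not, black bars are group medians, and the named genes are the highest and lowest of their group among those with a mean log2 CPM of at least 1 (only the lowest is named for MMP activators). No gene passed the adjusted threshold, and FN1 at -2.18 came nearest to it.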

How the data were processed

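RNA of 11 xenografts was sequenced as paired-end reads after library preparation with a NEBNext Ultra RNA kit, per the labels' protocols. The submitters' processing notes name bcl2fastq 2.17, STAR 2.7.5c, Subread, featureCounts, edgeR and the builds GRCh37 and hg19. Which annotation and strand setting were used, and what was done with mouse reads, is not given in the sources used here. The deposited counts are whole reads for each symbol and library, not normalized. The deposited RPM values are those counts divided by the column total, per the values themselves, which were checked. The authors' deposited comparison table holds log2 fold changes, p-values and adjusted p-values, and group means as a signal in RPM; its test is not stated.

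Samples were grouped by title. Columns were matched by the code in each sample's description. Libraries held 22808033 to 39249329 counts, so 3 counts equal 0.0764 to 0.132 RPM. Over 55 pairs of libraries, counts always differed by more than sampling noise (lowest chi-square per degree of freedom 15.5), so each was kept as a sample. The labels do not say how animals were housed or assigned, and the edgeR p-values set the difference between groups against the spread between these tumours.

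Genes were kept with filterByExpr (minimum count 10, minimum total 15), scaled with TMM factors and tested with edgeR 4.0.16 (R 4.3.3) by the quasi-likelihood F-test without covariates, with Benjamini-Hochberg adjustment at 0.05. The fits were tested on simulated data with known changes. Log2 CPM used a prior count of 2. Exon lengths are unions of GENCODE 29 exons, matched by symbol. Correlations were taken between the 9 tested members with 100000 permutations, two-sided. Alternatives were relative log expression, upper quartile and library-size scaling, other filters, DESeq2 1.42.0, limma 3.58.1 (voom, quality weights, trend on log2(RPM + 1) and log2(RPM + 0.1)), the replicate number as a block, and each library left out. Correlations on the deposited RPM were added after seeing the data.

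The members and lists were chosen with earlier results of these data known. The text names all members and, in each pathway list, genes past the threshold and those with the highest and lowest fold change among tested genes of mean log2 CPM at least 1, except 1 gene that is not reported here. For members of that level it names the 3 most correlated genes. Overlapping genes could share reads with a member: SYN1 opposite TIMP1 had 0.421 to 1.82 RPM, CEP295NL on the strand of TIMP2 0.246 to 0.755, and SYN3 opposite TIMP3, WTAPP1 at MMP1 and MMP3, SLC12A5-AS1 at MMP9 and MMP2-AS1 at most 0.187.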

Additional observations from a re-analysis of the deposited data

Results flagged for a closer look

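Each value here lay farther from the rest of its own group than Dixon's 95% criterion allows. In all, 56 groups of values were examined, and 5 values were picked out where chance alone gives about 2.8.

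MMP9 reached 2.73 RPM in evexomostat tumour 004, while the other 4 evexomostat tumours had 0.921 to 1.31. The log2 ratio of MMP7 to TIMP1 per kilobase was -8.52 in vehicle tumour 007 and -4.35 to -2.56 in the other 5 vehicle tumours. TIMP4 stood at 34.0 RPM in vehicle tumour 007, against 8.82 to 17.9 in the others of its group. TSPAN12 was 13.8 RPM in vehicle tumour 006, against 6.50 to 8.57. FN1 was 107.0 RPM in evexomostat tumour 003, below the 178 to 206 RPM of the other evexomostat tumours.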

How the results depend on the processing

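No member passed the adjusted threshold in any of the 23 alternatives, and the fold changes of MMP2, MMP9, MMP14 and TIMP3 kept their sign in all that gave a value. MMP1 turned to -0.54 in limma-voom, -0.0348 on log2(RPM + 1) and -0.39 on log2(RPM + 0.1), and MMP3 to -0.34 in limma-voom. TIMP2 turned to -0.0413 with quality weights. Leaving out single libraries gave 0.07 to 0.82 for MMP1, 0.46 to 0.78 for MMP2, -0.0784 to 0.88 for MMP3, -1.54 to -0.98 for MMP7, 0.35 to 0.97 for MMP9, 0.03 to 0.79 for MMP14, -0.0848 to 0.21 for TIMP1, -0.0637 to 0.12 for TIMP2, -0.81 to -0.43 for TIMP3, -0.92 to -0.41 for TIMP4, -1.02 to -0.40 for MMP28, -0.92 to -0.39 for LRP1 and -0.0204 to 0.41 for THBS2. The causes were not tested.

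The labels do not say whether the replicate numbers pair the tumours. The deviations of same-numbered tumours from their group means correlated at -0.27 (003), 0.07 (004), 0.05 (005) and -0.10 (007), which cannot settle how the animals were paired. With the number as a block in the 8 libraries that share numbers, 107 genes passed, 3 of them pathway genes, MMP7 was 0.0959, TIMP2 -0.0065, MMP1 0.13, MMP14 1.17 (adjusted p 0.101), MMP17 0.28, A2M 0.79 and MMP28 -0.0007. The same 8 libraries leave out vehicle tumours 001 and 006 and evexomostat tumour 002. With no block they gave 733 genes (225 higher and 508 lower) and 7 pathway genes. The fold changes were then -0.46 for MMP7, -0.0477 for TIMP2, 0.55 for MMP1, 0.92 for MMP14, 0.29 for MMP17, 0.65 for A2M and -0.13 for MMP28. Leaving out vehicle tumour 006 alone gave 0.79 for MMP14. The fit with the block thus differs from the main fit in its libraries as well as in the block.

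The count of 101 genes past the threshold was 62 with library sizes only, 649 in DESeq2 (200 higher and 449 lower) and 1059 with quality weights (384 higher and 675 lower). Lower genes numbered 72, against 42 under upper quartile scaling, 28 with library sizes only, and 31 and 30 on log2(RPM + 1) and log2(RPM + 0.1). Pathway genes past it went from 0 to 1 with no count filter, 7 in DESeq2 and 12 with quality weights. Leaving out single libraries gave 1 to 865 genes, 1 to 328 higher, 0 to 537 lower and 0 to 11 pathway genes, with the highest count, 865, without vehicle tumour 001 and the lowest without evexomostat tumour 005. MMP3 (0 to 129 counts per library), MMP9 and MMP13 rest on few counts in some or all libraries, which limits their precision.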
